A study of Mus musculus with 7 samples.

Results

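The mitochondrial respiratory chain and ATP synthase were followed through 6 days of mouse embryonic stem cell differentiation. Members were the rows whose symbols match the subunit names of complexes I to V. These names were Nduf (A, B, C, S and V series), Sdh, Uqcr, Cox4 to Cox8 and Atp5. The protein genes of mitochondrial DNA (mt-Nd, mt-Cytb, mt-Co and mt-Atp) completed them. Of 97 matching rows, 95 were above 0 in at least 1 of 7 libraries, out of 21813 genes above 0 in all. There were 13 mitochondrially encoded members and 82 nuclear ones. Of the nuclear ones, 2 (Atp5s and Atp5sl) matched by name only and were counted in no complex. Cox6a2 and Cox8b, the heart and skeletal muscle forms of their subunits, were listed at 0 in every library. Just inside the rule stood Cox7b2, at 0.08 in 1 library and 0 in the other 6, and Cox8c, at 1.09 in 1 library only.

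Bulk RNA-seq of polyadenylated RNA was made from Bry-GFP mouse embryonic stem cells. Day 0 cells (2 libraries) were stem cells kept on mouse embryonic feeder cells with 15% serum and LIF at 1000 U/mL. Day 2 cells (2 libraries) had been lifted off the feeders and held for 48 h in serum-free suspension at 75000 cells per mL, where they form embryoid bodies. Day 4 cells (2 libraries) had then been given 3 factors for 48 h to induce primitive streak. These were Noggin (150 ng/mL), Wnt3a (25 ng/mL), and also Activin A (9 ng/mL). Day 6 cells (1 library) had been moved for a further 48 h to medium with basic FGF at 10 ng/mL. All 7 libraries come from this 1 line. The labels call the replicates biological without naming separate thaws or clones, so p-values measure the spread between these samples after normalization. Day 6 has no replicate, and its tests take the spread from days 0, 2 and 4 and assume the same for day 6.

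Complex I takes electrons from NADH and complex II (succinate dehydrogenase) from succinate, and both pass them to ubiquinone. Complex III hands them on to cytochrome c, and complex IV (cytochrome c oxidase) to oxygen. Protons pumped by complexes I, III and IV drive complex V, the ATP synthase. Mitochondrial DNA is read from both strands as long transcripts that are cut into mRNAs. It encodes core subunits of complexes I, III, IV and V and no subunit of complex II. All other subunits are made in the cytosol from nuclear genes, so each complex but the second is built from the products of both genomes.

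Neighbouring mitochondrial genes can share bases, which matters when their values are read. The end of mt-Atp8 and the start of mt-Atp6, membrane subunits of complex V, overlap over 43 bases of 1 strand (GRCm38, chrM:7927-7969), so a read from that stretch belongs to both. The stretch is shown from 15 bases before the overlap to its end (chrM:7912-7969, plus strand, GENCODE transcript), with the start codon of mt-Atp6 in capitals.
mt-Atp8 and mt-Atp6: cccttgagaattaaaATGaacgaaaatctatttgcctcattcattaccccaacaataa
Of the 95 members, 12 overlapped exons of another gene on the same strand and 28 on the opposite strand. In all, 38 members shared at least 150 bases at 95% identity or more with another gene, for example Uqcr11, Atp5g2, Atp5k and Cox7a2l with pseudogenes. Reads that fit several genes can have been split among them, and how they were counted was not stated.

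Levels are log2 of 1 plus scaled reads, after the authors' quantile normalization. That step gives each rank nearly the same value in every library. The top 104 ranks were identical throughout, so for the most abundant genes a level states a rank. Replicates that share such a rank tie exactly, which can make the SE and p-value of that gene too small. Depth, read from the steps between low values, ran from about 2610000 to 5450000 reads per library, and 3 reads correspond to a level between 1.44 and 2.29. Feeder cell markers (Col1a1, Col3a1 and 10 others) summed to 23843 and 27554 scaled reads on day 0 and to between 874 and 2092 from day 2 on, with Lum at 0 in 1 day 4 library. Pluripotent cell markers summed to 13279 and 11610 on day 0, and to 2010 on day 6. Summed neural markers went from 211 and 228 on day 0 to 3443 on day 6. Definitive endoderm and notochord markers summed to 126 and 55.8 (day 0), 1190 and 1049 (day 4), then 747 (day 6). Primitive streak and mesoderm markers summed to 227 and 125 (day 0), 89.5 and 217 (day 2), 638 and 546 (day 4), then 302 (day 6). Both day 4 libraries stood above all others, and Mesp1 was at 0 in 6 libraries. Cardiac and skeletal muscle markers summed to between 80.1 and 246, and Nkx2-5 and Ckm were at 0 in most libraries.

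Mitochondrially encoded genes were the most abundant members on the per-kilobase scale. By the median over the 7 libraries, 11 of the 13 preceded every nuclear member. The highest was mt-Co1, the catalytic core of complex IV (chrM:5328-6872), at 14.56 (log2 per kb). Its level before division by length was 15.19, 14.85, 15.19, 15.59, 15.19, 15.19 and 15.19 over the libraries in order of day and replicate. It took rank 1, 2 or 3 of all genes in each, so its level could hardly move upwards. The first nuclear gene in the order was Atp5b, the catalytic beta subunit of ATP synthase (chr10:128083273-128090391), at 11.46 (log2 per kb), next to mt-Nd5 at 11.73. These neighbours overlapped in their spread over libraries: Atp5b ran from 11.08 to 11.69 and mt-Nd5 from 11.55 to 12.57. Exceptions among the mitochondrial genes were mt-Co2, which carries the copper centre that accepts electrons from cytochrome c, at 9.55, and mt-Nd3, a small membrane subunit of complex I, at 8.91.

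The gap between the genomes varied with day. Per kilobase, the median of the 13 mitochondrial genes exceeded that of the 73 nuclear members above a mean level of log2 of 11 by 4.35 and 3.97 on day 0 (log2). It stood at 4.75 and 5.03 on day 2, at 4.10 and 4.09 on day 4 and at 5.05 on day 6. Days 2 and 6 lay above both other days, and days 0 and 4 overlapped. By share of all scaled reads, mitochondrial members held 2.40 and 2.09% (day 0), 2.87 and 3.65% (day 2), 2.17 and 2.27% (day 4), then 2.84% (day 6). Nuclear members of all complexes held between 0.732 and 0.805% on days 0 to 4 and 0.628% on day 6. Since the normalization fixes the values at the top, these shares describe the normalized table and not the cells' RNA.

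**Figure D1:**
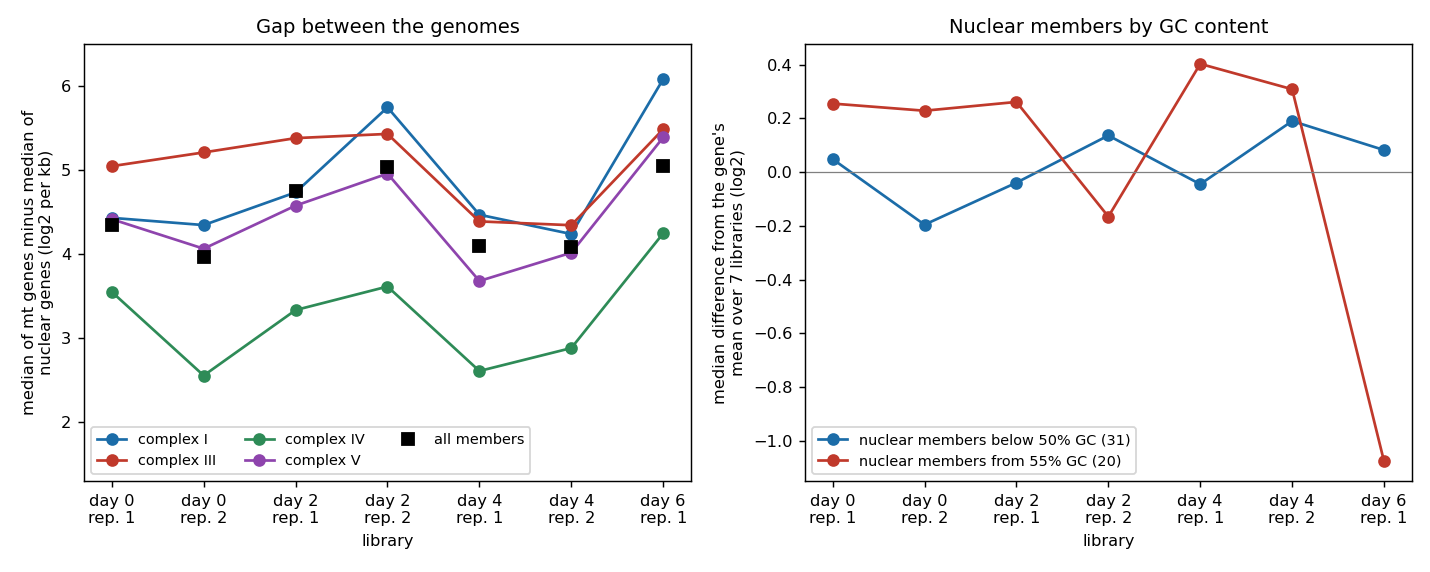
Left: median level of the mitochondrially encoded genes minus median level of the nuclear members, in log2 per kilobase (vertical axis), for each of the 7 libraries (horizontal axis), for all members (squares) and by complex (circles joined by lines). Right: median difference of nuclear members from their own mean over the libraries (log2), for the 31 members below 50% GC and the 20 from 55% GC. In each complex the gap per kilobase was highest in the day 6 library, where the GC-rich members stood at -1.08.

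Within each complex the gap was highest on day 6. Complex I had gaps per kilobase of 4.43 and 4.35 (day 0), 4.74 and 5.75 (day 2), 4.47 and 4.24 (day 4), then 6.08 (day 6). For complex III, where mt-Cytb is the only mitochondrial gene, it was 5.05 and 5.21, then 5.38 and 5.43, 4.39 and 4.35, and 5.49. Complex IV had the smallest gap per kilobase in every library, between 2.56 and 4.25. For complex V it ran from 3.68 in a day 4 library to 5.39 on day 6. Not divided by length, the gap of complex I was 6.26 in day 2 replicate 2, above 6.22 on day 6. That of complex III was likewise highest on day 2, at 5.44 in replicate 1 against 5.21 on day 6.

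Over the whole course, 31 of the 95 members differed between days by limma's F test (adjusted p below 0.05 over all genes), against 28.6% of all genes tested. They were 7 of the 13 mitochondrial genes and 24 of the 82 nuclear ones. By complex, the nuclear calls were 10 of 35 in complex I, 0 of 4 in complex II, 3 of 8 in complex III, 5 of 18 in complex IV and 6 of 15 in complex V. No complex II gene reached an unadjusted p below 0.05 in that test either. The share of members was close to that of all genes. Of genes above the mean minimum 42.7% differed, against 22 of the 73 nuclear members above it (30.1%) and 53.8% of the mitochondrial genes.

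From day 0 to day 2, when the cells left feeders, serum and LIF, 5 mitochondrial genes rose and no nuclear member passed the test in either direction. The 5 of 95 members called compare with 12% of all genes, and the 5 of 13 mitochondrial genes called higher with 5.76% of all genes and 9.7% of genes above the mean minimum. Lower calls made up 6.2% of all genes. The genes that rose were mt-Nd2, mt-Nd4l, mt-Nd5 and mt-Nd6, membrane subunits of complex I, and mt-Cytb, the cytochrome b of complex III. All 13 mitochondrial changes were positive, also with GC-corrected or length-adjusted levels, with a median of 0.67 (log2; 0.30 corrected for GC), against 0.03 over the 73 nuclear members and 0.14 over all genes above the same minimum. Of the 13, 9 had both day 2 libraries above both day 0 libraries, as had 40.2% of genes above the minimum.

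The gene mt-Nd2 (chrM:3914-4951) was at 12.06 in both day 0 libraries, against 12.98 and 13.23 on day 2. It rose by 1.04 ± 0.11 (SE, log2; 2.06-fold, adjusted p = 0.00335, limma), and the libraries of the days did not overlap. The gene mt-Nd6 (chrM:13552-14070), the only mitochondrial member annotated on the minus strand, was at 10.65 and 10.81, then 11.48 and 11.83. Its rise was 0.92 ± 0.14 (1.90-fold, adjusted p = 0.00965, limma). It overlaps the end of mt-Nd5 on the opposite strand, and the counting's use of strand is not given. Its reads can therefore include RNA of the other strand, and the rises of mt-Nd5 and mt-Nd6 are not shown to be separate. That neighbour, mt-Nd5 (chrM:11742-13565), went from 12.55 and 12.42 to 13.14 and 13.44, a rise of 0.81 ± 0.11 (adjusted p = 0.00808, limma). For mt-Nd4l (chrM:9877-10173), 10.11 and 10.11 became 10.64 and 11.23 (adjusted p = 0.0388, limma), a call lost with length-adjusted levels (adjusted p = 0.0763). The cytochrome b gene mt-Cytb (chrM:14145-15288) was at 13.44 and 13.39, then 13.87 in both day 2 libraries, a rise of 0.45 ± 0.07 (1.37-fold, adjusted p = 0.0124, limma). Both day 2 libraries gave it rank 7, which is why their values are equal. The tie can make the SE and p-value of mt-Cytb too small, as can that of mt-Nd2 on day 0.

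The other 8 mitochondrial genes did not pass. Of complex I, mt-Nd1 differed by 0.58 ± 0.15 (adjusted p = 0.0531, limma) and mt-Nd4 by 0.60 ± 0.16 (adjusted p = 0.0621, limma), each with libraries that did not overlap. In complex V, mt-Atp6 differed by 0.67 ± 0.32 and mt-Atp8 by 0.55 ± 0.23. Complex IV gave 0.37 ± 0.16 for mt-Co1, 1.08 ± 0.82 for mt-Co2 and 0.27 ± 0.28 for mt-Co3, with overlapping libraries. For mt-Nd3 the difference was 0.69 ± 0.62, and its day 2 libraries stood at 6.70 and 8.79.

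Among nuclear members, none of 82 passed limma's test, with 7 at an unadjusted p below 0.05 (26.9% of all genes). Core subunits gave -0.06 ± 0.14 for Ndufs1, 0.09 ± 0.24 for Ndufv1, 0.07 ± 0.11 for Sdha, 0.23 ± 0.17 for Uqcrfs1, -0.27 ± 0.18 for Uqcrc1, -0.40 ± 0.28 for Cox4i1, -0.15 ± 0.10 for Atp5a1 and -0.20 ± 0.08 for Atp5b. Feeder markers fell at the same step (10 of 12 called lower), and in bulk samples fewer cells of a type and less RNA per cell cannot be told apart. The part of feeder RNA in the day 0 values was not tested. Without any 1 of the 6 replicated libraries, 0 or 1 member was called, and 1 was called without robust and trended moderation. With levels corrected for GC content, 4 of the 5 mitochondrial calls remained, and mt-Cytb did not (adjusted p = 0.307, limma). A call in the higher direction was gained by mt-Nd1, and calls in the lower direction by Atp5b and Ndufs7. Ndufs7 was listed at 0 in 1 day 2 library.

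**Figure D2:**
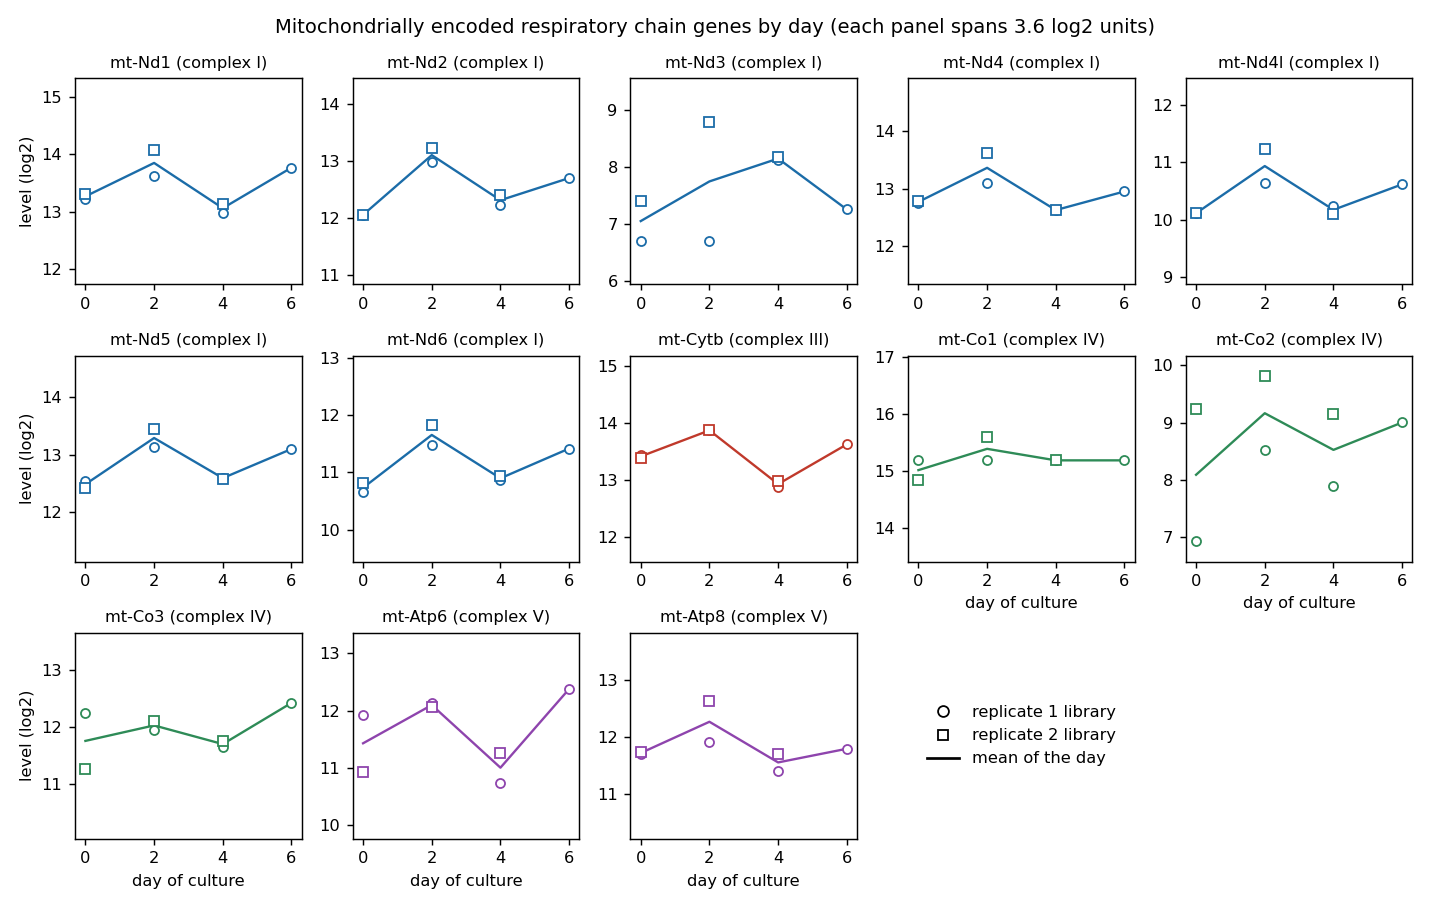
Levels (log2 of 1 plus scaled reads, vertical axes, each spanning 3.6 units) of the 13 mitochondrially encoded genes by day of culture (horizontal axes). Circles are replicate 1 libraries, squares replicate 2 libraries and lines join the means of the days; most genes are highest on day 2, and mt-Co2 has its replicate 1 library below its replicate 2 library on each of days 0, 2 and 4.

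From day 2 to day 4, under Noggin, Wnt3a and Activin A, 5 mitochondrial genes fell. The 6 of 95 members called compare with 3.59% of all genes. The 5 lower were mitochondrial (5 of 13, against 2.13% of all genes and 3.49% of those above the mean minimum), and the 1 higher was nuclear (1.45% of all genes). Of the 13 mitochondrial changes 12 were negative (11 corrected for GC), with a median of -0.74 (log2; -0.30 corrected), while the nuclear median was 0.10 and that of all genes above the minimum -0.02. Both day 4 libraries lay below both day 2 libraries in 10 of 13 mitochondrial genes, as in 29.7% of genes above the minimum. This comparison shares its day 2 libraries with the previous one.

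The gene mt-Cytb went from 13.87 in both day 2 libraries to 12.88 and 12.98, and fell by 0.94 ± 0.07 (SE, log2; 0.522-fold, adjusted p = 0.00816, limma). It took ranks 21 and 18 on day 4. Complex I genes that fell were mt-Nd2 (-0.79 ± 0.11, adjusted p = 0.0219), mt-Nd5 (-0.70 ± 0.11, adjusted p = 0.0308), mt-Nd6 (-0.76 ± 0.14, adjusted p = 0.0402) and mt-Nd1 (-0.79 ± 0.15, adjusted p = 0.0446, all limma). As with the rises, the falls of mt-Nd5 and mt-Nd6 are not shown to be separate. For mt-Nd1, the day 2 levels of 13.63 and 14.08 became 12.98 and 13.14. Values for mt-Nd4 (-0.74 ± 0.16) and mt-Nd4l (-0.76 ± 0.19) were of like size and did not pass. The complex V genes mt-Atp6 (-1.09 ± 0.32) and mt-Atp8 (-0.71 ± 0.23) did not pass either. Complex IV gave -0.20 ± 0.16 for mt-Co1, -0.64 ± 0.82 for mt-Co2 and -0.33 ± 0.28 for mt-Co3. The exception in sign was mt-Nd3, at 0.40 ± 0.62.

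The nuclear gene that rose was Ndufa4l2 (chr10:127514967-127517154), a paralog of the complex IV subunit Ndufa4 known as a target of hypoxia-inducible factor. Its levels were 1.45 and 1.35 (day 0), 1.08 and 1.09 (day 2), 3.98 and 4.72 (day 4), then 3.63 (day 6), so the later days lay above the earlier ones. Its difference from day 2 to day 4 was 3.26 ± 0.50 (log2, adjusted p = 0.0251, limma). The day 0 and day 2 levels lie near or below what 3 reads give, so the size rests on few reads. Its exons overlap Shmt2 on the opposite strand. Ndufa4 itself did not pass (-0.12 ± 0.13), at 9.20 and 9.31, then 9.01 and 9.26. Core nuclear subunits gave -0.25 ± 0.14 for Ndufs1, 0.06 ± 0.24 for Ndufv1, 0.14 ± 0.11 for Sdha, 0.20 ± 0.17 for Uqcrfs1, 0.14 ± 0.18 for Uqcrc1, 0.44 ± 0.28 for Cox4i1, 0.35 ± 0.10 for Atp5a1 and -0.12 ± 0.08 for Atp5b. Without any 1 of the 6 replicated libraries, between 0 and 2 members were called. Corrected for GC content, 2 of the 5 mitochondrial calls remained, mt-Nd1 and mt-Cytb, and those of mt-Nd2, mt-Nd5 and mt-Nd6 were lost. The nuclear genes Cox7a2l and Ndufs7 gained a call in the higher direction.

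From day 4 to day 6, in basic FGF, 11 nuclear members of complexes I, III, IV and V fell, and mt-Cytb rose, which it did not with levels corrected for GC content. The 12 of 95 members called compare with 4.46% of all genes. Lower were 11 of 82 nuclear members, all of them among the 73 above the mean minimum (3.18% of all genes, 5.59% of those above the minimum). In all, 41 of the 82 reached an unadjusted p below 0.05, as did 25.3% of all genes. Higher was 1 mitochondrial gene (1.27% of all genes). By complex, those that fell included Ndufa8, Ndufa11 and Ndufb10 of complex I, Uqcr11 and Uqcrc1 of complex III, Cox4i1 of complex IV, and Atp5a1, Atp5d, Atp5g2 and Atp5k of complex V. The median of the 73 nuclear members was -0.47 (log2), with 50 of 73 negative, against 0.06 over all genes above the same minimum. By complex it was -0.36 for I, -0.43 for II, -0.60 for III, -0.56 for IV and -0.47 for V. Of the 13 mitochondrial genes 12 were at or above their day 4 mean, with a median of 0.48, while corrected for GC content 4 were above it and 9 below, with a median of -0.11.

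The largest fall among those called was that of Uqcr11 (chr10:80402997-80406830), the smallest accessory subunit of complex III. Levels were 6.61 and 6.78 (day 0), 7.05 and 6.30 (day 2), 6.68 and 6.49 (day 4), then 3.75 (day 6). It fell by 2.83 ± 0.36 (SE, log2; 0.140-fold, adjusted p = 0.0216, limma), and the day 6 library was below all 6 others. The complex I accessory subunit Ndufa11 (chr17:56717767-56722141) was between 6.01 and 6.87 on days 0 to 4 and at 4.20 on day 6. It fell by 2.46 ± 0.39 (0.182-fold, adjusted p = 0.0288, limma). Ndufb10 (chr17:24722060-24724478), another accessory subunit of complex I, was at 5.84 and 5.98 on day 4, against 4.30 on day 6, and fell by 1.61 ± 0.32 (adjusted p = 0.0457, limma). Complex IV's Cox4i1 (chr8:120668222-120674207), the regulatory subunit that binds ATP, was between 8.16 and 9.19 on days 0 to 4 and at 7.22 on day 6. It fell by 1.80 ± 0.34 (0.288-fold, adjusted p = 0.0434, limma).

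In the ATP synthase, genes of the stalk, the membrane ring and the catalytic head were among those that fell. Atp5d (chr10:80138632-80145818), the delta subunit of the stalk, was at 8.40 and 8.09 on day 4, against 6.17 on day 6, and fell by 2.07 ± 0.41 (0.238-fold, adjusted p = 0.0461, limma). Atp5g2 (chr15:102662864-102672352), 1 of 3 genes for the c subunit that forms the rotating ring, was at 6.06 and 6.19, then 3.74, and fell by 2.39 ± 0.45 (0.191-fold, adjusted p = 0.0433, limma). The catalytic head gene Atp5a1 (alpha) fell by 0.72 ± 0.13 (adjusted p = 0.0371, limma), and Atp5b (beta) gave -0.27 ± 0.10 and did not pass. Differences between these changes were not tested. Ndufs1, the largest core subunit of complex I, gave 0.31 ± 0.17, Ndufv1, which binds NADH, -1.38 ± 0.29, Sdha, which oxidises succinate, -0.47 ± 0.14, and Uqcrfs1, the iron-sulfur protein of complex III, -0.03 ± 0.21. None of these passed.

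Mitochondrial changes at this step were 0.69 ± 0.09 for mt-Cytb (1.62-fold, adjusted p = 0.0219, limma), from 12.88 and 12.98 to 13.63. For complex I they were 0.71 ± 0.18 for mt-Nd1, 0.39 ± 0.14 for mt-Nd2, 0.33 ± 0.20 for mt-Nd4, 0.45 ± 0.23 for mt-Nd4l, 0.51 ± 0.14 for mt-Nd5, 0.52 ± 0.17 for mt-Nd6 and -0.89 ± 0.76 for mt-Nd3. For complexes IV and V, mt-Co1 did not move (15.19 in all 3 libraries), mt-Co2 gave 0.48 ± 1.00, mt-Co3 0.72 ± 0.35, mt-Atp6 1.38 ± 0.39 and mt-Atp8 0.24 ± 0.28. The day 6 library lay above both day 4 libraries in 10 of the 13, as in 45% of genes above the minimum.

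**Figure D3:**
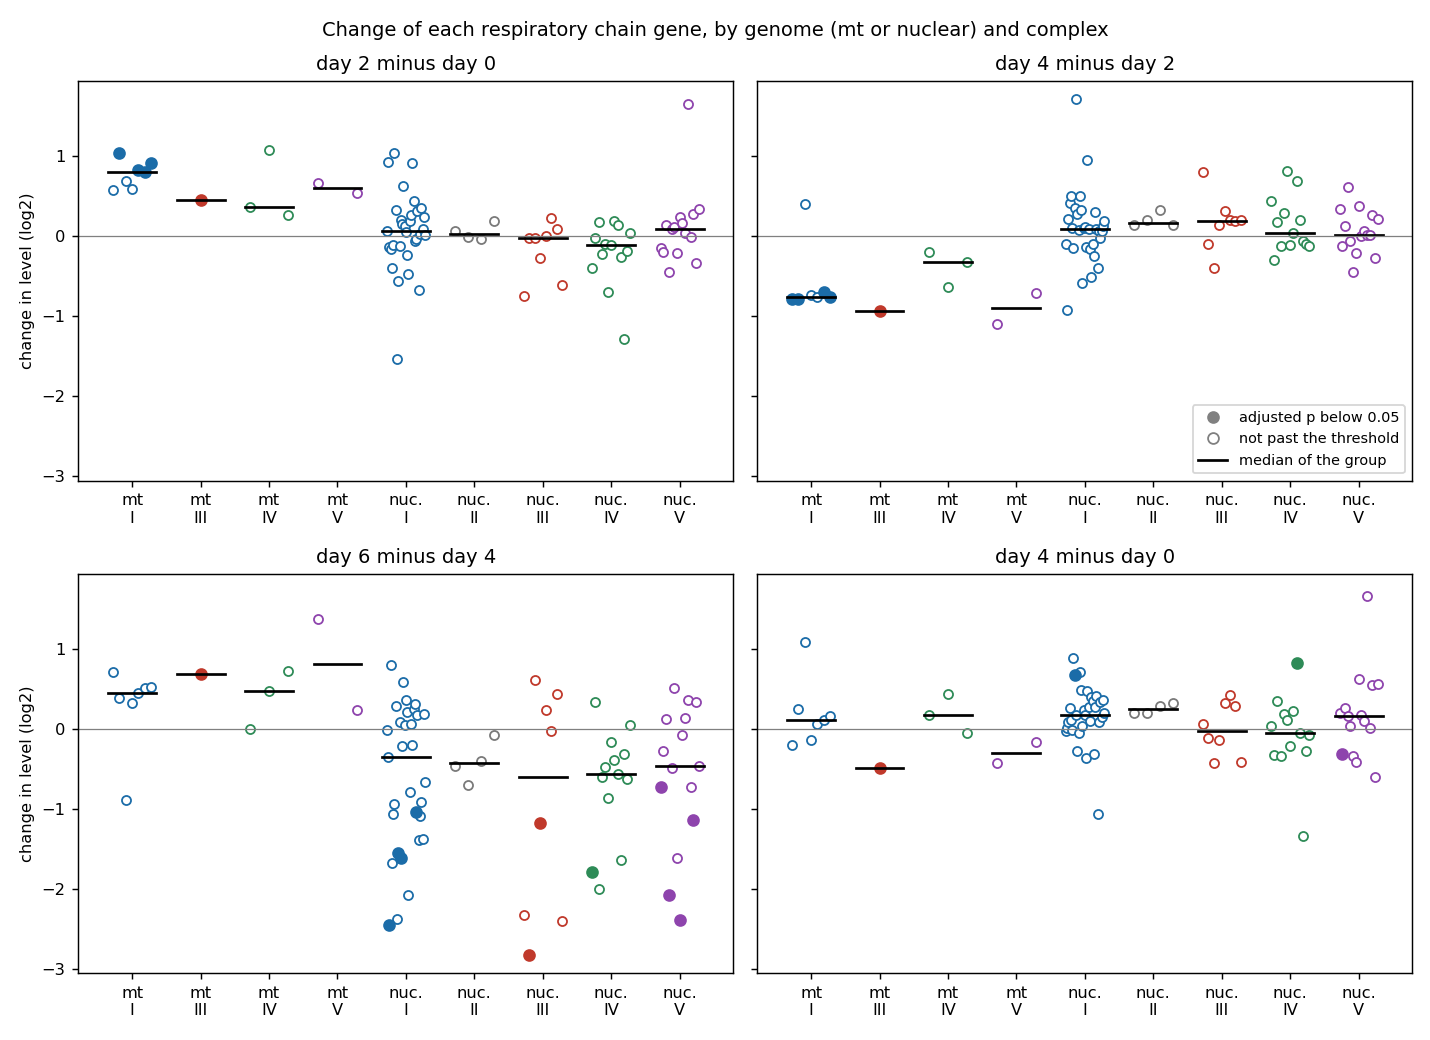
Change in level (log2, vertical axes) of each mitochondrial gene and of each nuclear member above the mean minimum in the 4 comparisons, by genome and complex (horizontal axes). Filled circles passed limma's test, open circles did not and bars are group medians; the medians of the mitochondrial groups lie above 0 on day 2 against day 0 and below it on day 4 against day 2, and 11 nuclear members lie among the filled circles below 0 on day 6 against day 4.

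The day 6 changes moved with base composition. Across the 73 nuclear members, Spearman's rho between the GC content of the transcript and the change was -0.605, and across 11735 genes above the minimum it was -0.588 (genes are not independent replicates). The 31 members below 50% GC had a median change of 0.09 and none of the 11 falls, and the 20 from 55% GC had a median of -1.50 and 7 of the 11. Over all genes the medians of the same classes were 0.38 and -0.80. By library, GC-rich members minus GC-poor ones (median difference from the gene's mean) were 0.21 and 0.42 (day 0), 0.30 and -0.30 (day 2), 0.45 and 0.12 (day 4), then -1.16 (day 6). The day 6 library stood lowest, and the day 2 replicates differed in sign. Within day 2, rho between GC and replicate 2 minus replicate 1 was -0.564 over the same members. Mitochondrial transcripts hold 31.9 to 41.1% GC. Their median difference from their own mean was -0.22, -0.32, 0.18, 0.69, -0.29, -0.21 and 0.19 over the libraries, beside -0.07, -0.17, -0.04, 0.29, -0.23, -0.08 and 0.38 for the 1284 genes below 42% GC.

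Corrected for GC content, 6 of the 11 nuclear falls remained. They included Uqcr11 (-1.88, adjusted p = 0.00932), Ndufa11 (-1.56, adjusted p = 0.0227), Cox4i1 (-0.91, adjusted p = 0.0405) and Atp5d (-1.09, adjusted p = 0.044, all limma). The lost calls included Atp5g2 (adjusted p = 0.0566), Ndufb10 (adjusted p = 0.133), Uqcrc1 and Atp5k, and mt-Cytb (adjusted p = 0.648). The nuclear genes Atp5g1, Atp5j2, Cox7b and Uqcrq gained one, as did mt-Co1, in the lower direction (-0.56, adjusted p = 0.0303, limma). The median of the mitochondrial genes minus that of the nuclear members went from 0.95 to 0.22 under the correction. Adjusted for transcript length, 6 mitochondrial genes were called higher, and the nuclear median was -0.16. Whether base composition, cell makeup or the single day 6 library underlies these changes was not tested. Without any 1 of the 6 replicated libraries, between 0 and 4 members were called. Cytosolic ribosomal protein genes also fell at this step (23 of 81 called lower, median -0.97), while 5 of 76 mitochondrial ribosomal protein genes were called lower (median -0.05). Of all genes, 3.18% were called lower.

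**Figure D4:**
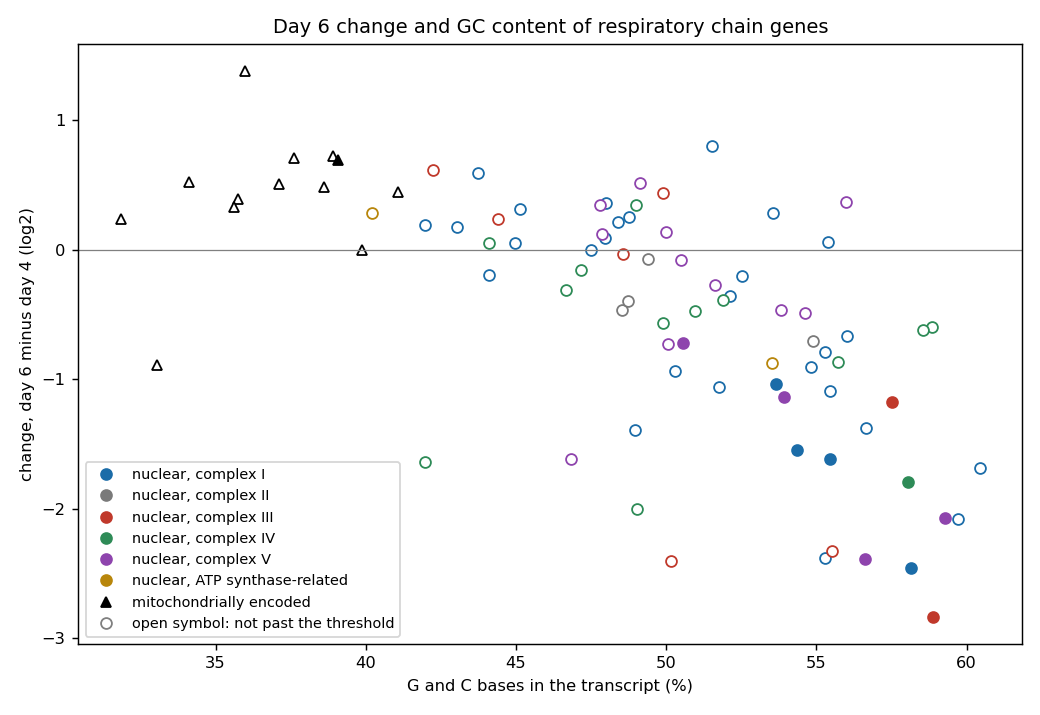
Change from day 4 to day 6 (log2, vertical axis) against the share of G and C bases in the transcript (%, horizontal axis), for the 73 nuclear members above the mean minimum (circles, coloured by complex) and the 13 mitochondrial genes (triangles); filled symbols passed limma's test. The 11 nuclear falls lie above 50% GC, and the mitochondrial genes between 31.9 and 41.1%.

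Across the first 4 days as a whole, few members changed. The 5 of 95 called from day 0 to day 4 compare with 21.7% of all genes and 31.6% of those above the mean minimum. The 3 that rose (11.3% of all genes were called higher) were Cox7a2l, Ndufa6 and the low-level Ndufa4l2, and the 2 that fell (10.4% of all genes) were Atp5b and mt-Cytb. Cox7a2l (chr17:83501918-83517330), known as a factor that joins complexes III and IV into supercomplexes, had levels of 8.83 and 8.73 (day 0), 9.07 and 8.77 (day 2), 9.70 and 9.52 (day 4), then 9.05 (day 6), with day 4 above the rest. It rose by 0.83 ± 0.15 (SE, log2; 1.78-fold, adjusted p = 0.0104, limma). Ndufa6 (chr15:82350140-82354322), an accessory subunit of complex I, went from 7.28 and 7.19 to 7.84 and 8.0, a rise of 0.68 ± 0.15 (1.60-fold, adjusted p = 0.0227, limma), and was at 8.20 on day 6. Atp5b fell by 0.32 ± 0.08 (0.803-fold, adjusted p = 0.0393, limma), from 12.62 and 12.60 to 12.36 and 12.23. The gene mt-Cytb fell by 0.48 ± 0.07 (0.715-fold, adjusted p = 0.00553, limma). Mitochondrial and nuclear medians were 0.06 and 0.16. Corrected for GC content, 4 of the 5 calls remained, and Ndufa6 did not (adjusted p = 0.0543, limma). A call was gained by 7 members: Atp5f1, Cox6a1, Cox8a, Ndufs1, Ndufs5, Uqcrc1 and mt-Nd2. That made 11 members called, 3 higher and 8 lower, among 5663 genes called with this correction. Without any 1 of the 6 replicated libraries, between 1 and 4 members were called.

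Related forms of a subunit were compared per kilobase of transcript (log2 per kb). For the c subunit of ATP synthase, which 3 genes encode as the same mature protein, Atp5g3 stood between 10.14 and 10.45, above both others in every library. Atp5g1 was between 5.31 and 6.16 on days 0 to 4 and at 3.95 on day 6 (-1.62 ± 0.35, adjusted p = 0.0549, limma), and Atp5g2 between 5.68 and 6.64 on days 0 to 4 and at 4.07 on day 6. In complex IV, Cox4i1 (7.60 to 9.58) stood above Cox4i2, the lung form, which was listed at 0 in 1 library and reached at most 3.38. Cox7a2 (9.24 to 9.74) stood above Cox7a1, the heart and muscle form (3.51 to 5.34). Cox6b1 (9.40 to 9.89) stood above Cox6b2, the testis form (6.00 to 7.12). None of these pairs overlapped. No change of Cox6b2 passed (0.82 ± 0.25 from day 2 to day 4, adjusted p = 0.128, limma). Cox8a was between 8.93 and 9.87 and Cox6a1 between 8.11 and 9.06. Cox7b lay between 6.78 and 7.83 on days 0 to 4 and at 5.86 on day 6 (-1.64 ± 0.48, adjusted p = 0.099, limma).

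**Figure D5:**
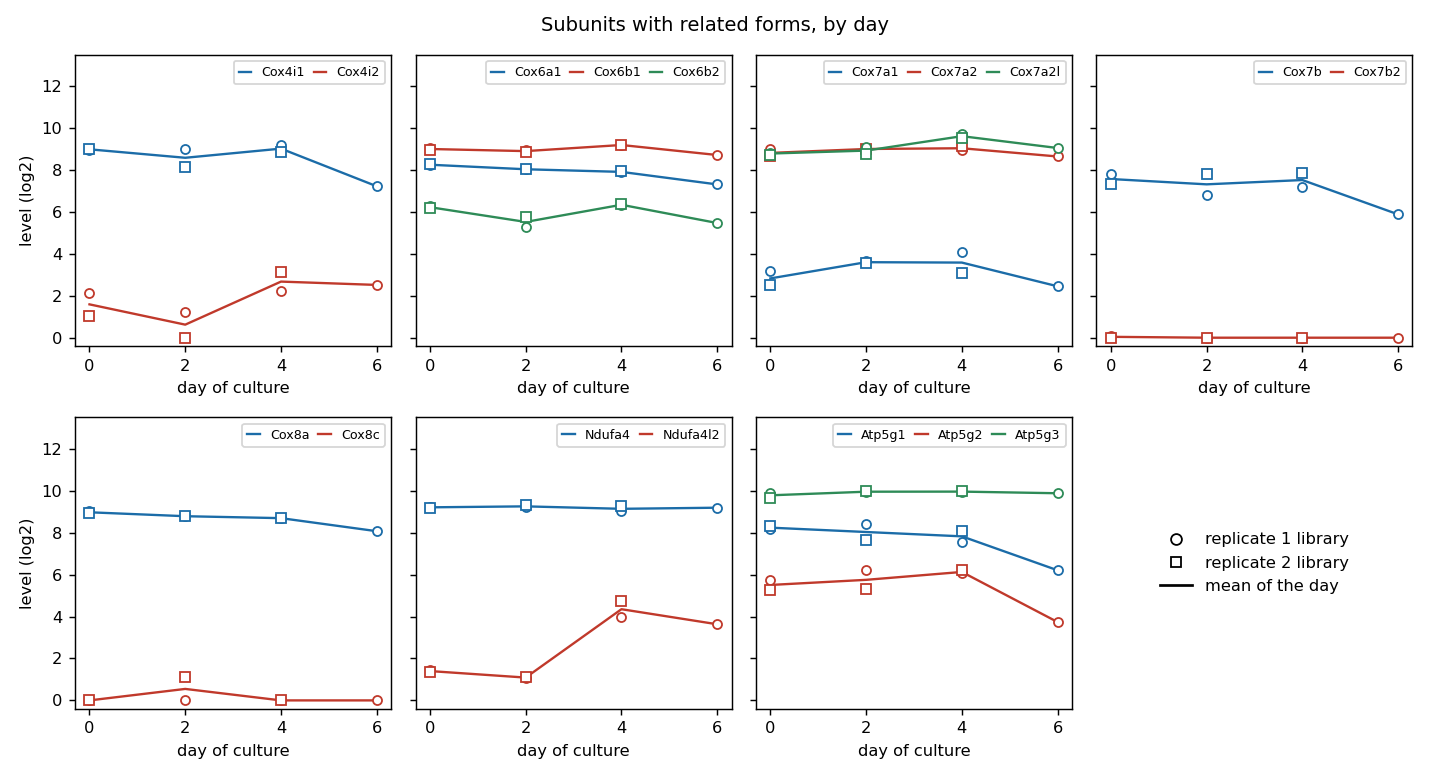
Levels (log2 of 1 plus scaled reads, vertical axes) of related subunit forms by day (horizontal axes). Circles are replicate 1 libraries, squares replicate 2 libraries and lines join the means of the days. Values are not divided by length, so heights of different genes are not comparable; Ndufa4l2 goes from 1.08 and 1.09 on day 2 to 3.98 and 4.72 on day 4, and Atp5g2 drops to 3.74 on day 6, where Atp5g3 is at 9.88.

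Promoters were read for the members that fell together on day 6. NRF1 (nuclear respiratory factor 1) is a transcription factor known to bind promoters of many respiratory chain genes. Its core motif, GCGCA followed by any base and GCGC, was searched on both strands in the 300 bases from 250 before to 50 after the start of each gene (RefSeq, GRCm38.p6). Of 82 nuclear members, 68 had a promoter in the table and 17 held the motif (25%), against 5.19% of 27025 genes and 8.51% of 14159 genes above 0 here. Of the 11 nuclear members that fell on day 6, 8 had a promoter and 5 held it. With levels corrected for GC content, Uqcrc1, Atp5g2 and Atp5k of these 5 lost their call. The motif is itself rich in G and C, and its share among all genes called lower on day 6 was not counted. Whether the motif has a part in the falls was not tested. A match is a run of letters and not a shown site. The 30 bases around it are printed for those 5 on the gene's strand, 5′ to 3′, with the motif in capitals.
Ndufa11 (chr17:56717692-56717721, 60 bases before the start): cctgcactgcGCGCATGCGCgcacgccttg
Ndufa8 (chr2:36049349-36049378, 30 bases before): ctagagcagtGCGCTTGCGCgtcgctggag
Uqcrc1 (chr9:108936668-108936697, 30 bases after, the second of 2): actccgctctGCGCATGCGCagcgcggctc
Atp5g2 (chr15:102671070-102671099, 42 bases before): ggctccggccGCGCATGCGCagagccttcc
Atp5k (chr5:108434430-108434459, 50 bases before): tttcactgcgGCGCATGCGCctttctggct
Among members above the mean minimum, the 16 with the motif had a median day 6 change of -0.77 and a median transcript GC of 53.7%, and the 46 without it -0.37 and 50.5%. The other motifs were searched likewise, and none of them contains another. The YY1 motif AAGATGGCG was in 8 of 68 (11.8%, against 1.64% of all genes and 2.54% of those above 0), and none of the 7 above the minimum fell by the test. The ETS motif CCGGAAGT was in 5 (7.35%, against 4.31% of all genes and 6.65% of those above 0), a share near that of genes above 0. The estrogen-related receptor motif TCAAGGTCA was in 2 (2.94%, against 0.466% and 0.367%).

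Of 14 nuclear regulators of respiratory genes, 3 were called from day 0 to day 2 and 1 from day 2 to day 4. From day 4 to day 6, 3 were called, and from day 0 to day 4 it was 4. Of all genes, 12, 3.59, 4.46 and 21.7% were called in these comparisons, and of genes above the mean minimum 18.1, 5.58, 7.24 and 31.6%. Nrf1, which encodes NRF1, rose after day 0 by 0.72 ± 0.15 (adjusted p = 0.0263, limma), from 7.41 and 7.66 to 8.27 and 8.25. None of the 14 was called higher from day 2 to day 4 or from day 4 to day 6. Esrrb, an orphan receptor of pluripotent cells, fell at every step, by 1.46 ± 0.22, 1.32 ± 0.22 and 1.58 ± 0.27 (adjusted p = 0.00994, 0.0327 and 0.0339, limma). Mef2a fell by 1.47 ± 0.22 from day 0 to day 2 (adjusted p = 0.0105, limma). From day 4 to day 6, Pprc1, a coactivator of the PGC-1 family, fell by 1.62 ± 0.25 (adjusted p = 0.0277) and Hcfc1 by 1.00 ± 0.20 (adjusted p = 0.0462, limma).

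Of 25 genes for the transcription, replication and RNA stability of mitochondrial DNA, 2 rose from day 0 to day 2 (8%, against 5.76% of all genes). They were Polg2, the accessory subunit of the mitochondrial DNA polymerase, at 1.51 ± 0.29 (adjusted p = 0.0209), and Fastkd2, a mitochondrial RNA-binding protein, at 1.43 ± 0.34 (adjusted p = 0.0404, limma). At that step 22 of the 25 changes were positive (median 0.30, against 0.14 over all genes above the minimum). Corrected for GC content, 18 were positive, with a median of 0.16. From day 2 to day 4, 22 were negative (median -0.39, against -0.02), none of them called, and 20 with a median of -0.33 corrected for GC content, 2 of them called. From day 4 to day 6 the median was 0.29, and -0.18 corrected for GC content. From day 0 to day 4, 3 of the 25 were called (12%), 1 higher and 2 lower. At that step 21.7% of all genes and 31.6% of those above the minimum were called. Tfb2m, a mitochondrial transcription factor, fell by 1.25 ± 0.25 (adjusted p = 0.0155) and Elac2, which trims mitochondrial tRNAs, by 0.87 ± 0.17 (adjusted p = 0.0153, limma). None of 41 assembly factors passed in any of the 4 comparisons (3, 3, 8 and 3 at an unadjusted p below 0.05, limma).

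Among 25 electron carrier, nucleotide carrier and uncoupler genes, 1, 1, 2 and 3 were called in the 4 comparisons (4, 4, 8 and 12%). The shares of all genes called were 12, 3.59, 4.46 and 21.7%. Ucp2, an uncoupling protein of the inner membrane, fell by 1.90 ± 0.31 (adjusted p = 0.0319) and Slc25a5, an ADP/ATP carrier, by 0.53 ± 0.11 (adjusted p = 0.0483, limma) from day 4 to day 6. Coq2, of ubiquinone synthesis, rose by 1.06 ± 0.17 from day 0 to day 4 (adjusted p = 0.00622, limma). Of 25 pyruvate dehydrogenase and citric acid cycle genes, 5 were called from day 0 to day 4 (20%), 3 higher and 2 lower. At that step 21.7% of all genes and 31.6% of those above the mean minimum were called. Idh2, the mitochondrial NADP-linked isocitrate dehydrogenase, rose by 1.51 ± 0.16 (adjusted p = 0.0016), and Pdk4, a kinase that switches pyruvate dehydrogenase off, fell by 1.34 ± 0.29 (adjusted p = 0.019, limma).

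Of 15 glycolysis and hypoxia genes, 6 rose from day 2 to day 4 (1.45% of all genes) and none fell, at the step where Ndufa4l2 rose. They included Vegfa at 1.68 ± 0.17 (adjusted p = 0.00951), the glucose transporter Slc2a1 at 1.49 ± 0.21 (adjusted p = 0.0206), the lactate dehydrogenase Ldha at 1.04 ± 0.10 (adjusted p = 0.00971) and Aldoa at 0.91 ± 0.15 (adjusted p = 0.0337, limma). From day 4 to day 6, 6 fell (3.18% of all genes) and 1 rose (1.27%). Pkm fell by 1.75 ± 0.18 (adjusted p = 0.0144), Slc2a1 by 1.63 ± 0.25 (adjusted p = 0.0281), Eno1 by 1.58 ± 0.24 (adjusted p = 0.0268) and Ldhb by 1.51 ± 0.21 (adjusted p = 0.0233, limma). Bnip3l, a mitophagy receptor, rose by 1.01 ± 0.16 (adjusted p = 0.0277, limma). Corrected for GC content, 4 of the 15 were called lower on day 6 and none higher. The part of base composition in these changes was not tested.

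A few members had replicates far apart, so their changes carry large errors. Ndufs3, a core subunit of complex I, was listed at 0 in all 4 replicate 1 libraries and at 6.09, 5.34 and 5.80 in the replicate 2 libraries of days 0, 2 and 4. No other gene of the table was at 0 in every replicate 1 library and at 4 or more in every replicate 2 library. Ndufs7 was listed at 3.19 and 5.69, 2.02 and 0, 5.84 and 4.84, and 0, and Ndufa3 at 2.41 and 4.67, 3.10 and 0, 0 and 5.63, and 2.26. Replicates also split for Cox7c, at 7.85 and 7.85, 5.31 and 7.83, 4.77 and 8.26, and 6.20, which was singled out after its values were seen. For mt-Co2 the replicate 1 and 2 libraries stood at 6.93 and 9.25, 8.52 and 9.81, and 7.89 and 9.16.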

How the data were processed

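RNA was measured in 7 libraries. The authors deposited 1 table, read here as natural log values of 1 plus scaled reads. No source used here gives that unit, and it was chosen from the spacing of low values. The step ratio would be 1 for an exact fit. It ran from 0.904 to 1.12 for a natural log and from 0.795 to 0.988 for log2. In day 0 replicate 1, day 2 replicate 2 and day 6, log2 lay nearer 1, and in the others the natural log did. Log10 lay further off in every library (1.53 to 2.035). The steps decide only weakly between natural log and log2, and all levels, changes, folds and depths rest on this choice. Sorted columns agreed within 0.01 over the top 9273 ranks, which shows quantile normalization before deposit. Reads were placed on GRCm38, per the submitters' processing notes. Aligner, counter and strand setting: not given in the sources used here. All 7 columns were matched to libraries (0 unmapped). In 1 column name a letter O stands for a zero. Left out were 8674 rows at 0 throughout and 103 rows of foreign sequence.

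Values were divided by the natural log of 2 and tested with limma-trend with robust moderation (limma 3.58.1, R 4.3.3). The fit had 1 mean per day over 7 libraries, 3 residual degrees of freedom, Benjamini-Hochberg adjustment over 21813 genes and a threshold of 0.05. ± after a change is its SE. Folds compare 1 plus scaled reads, which makes changes of low genes look smaller. Positions, GC content and length come from GENCODE M21 (97.7% of tested genes matched). An exact 0 can be a failed estimate: Gapdh was listed at 6.19, 7.13, 1.85, 3.44, 3.51, 7.08 and 0. Reads per library are estimates. Genes named are the 13 mitochondrial genes, up to 6 called rises and falls per comparison, isoform families, 1 core subunit or more per complex and up to 4 called genes per list. Other called members are listed by name, except for a result not reported here. The members and the lists were chosen with earlier results of these data known.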

Additional observations from a re-analysis of the deposited data

How the results depend on the processing

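Alternatives were a filter on low values, another pseudocount, plain moderation, a replicate block, median centring, length adjustment, fits of only the compared days, each library left out, and, chosen after seeing the data, GC correction. Comparisons are given in the order day 2 against 0, 4 against 2, 6 against 4 and 4 against 0.

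The low filter gave 9 members in the first, 1422 genes in the second, and 2200 genes and 27 members in the third. Plain moderation gave 1609, 335 and 609 genes in the first 3, 1, 1, 2 and 3 members, and 8 members for any day. The 2 days alone gave 87 and 0 genes in the first 2 and 0 members in the first 3. GC correction gave 1540 genes in the second and 11 members in the fourth (3 higher, 8 lower). It moved the mitochondrial minus nuclear median to 0.38, -0.38, 0.22 and, reversed from -0.10, 0.065. The change of mt-Co1 from day 4 to day 6, 0.00 before, became -0.56.

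Leaving out 1 library gave 0 to 791, 0 to 554, 0 to 817 and 1144 to 3725 genes, 0 to 1, 0 to 2, 0 to 4 and 1 to 4 members, and 3 to 22 members for any day. The medians' difference ran from 0.38 to 0.87, -0.997 to -0.47, 0.95 to 0.99 and -0.22 to -0.07.

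With a replicate block the third comparison gave 606 genes, and member counts stayed within 1.5 times. The numbers were not taken to pair the libraries, since not every pair of days correlated above 0.1: replicate 1 minus replicate 2 correlated at -0.058 (days 0 and 2), -0.066 (days 0 and 4) and 0.222 (days 2 and 4), so day 0 libraries did not correlate best with their own number. The causes of these shifts were not tested. Of the named genes' values, 2150 kept side and direction, 190 lost a call, 43 gained one and 1 reversed. Depth of about 2610000 reads in the shallowest library limits members near the 3-read level, among them Ndufa4l2, Cox4i2 and Cox7a1.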

Other observations

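Nuclear copies of mitochondrial genes were looked for in the table. GENCODE holds 11 pseudogenes that share at least 150 bases at 95% identity or more with 9 of the mitochondrial genes. Only Gm4076, a copy of mt-Nd5, had a row. It was listed at 5.40 and 6.24 (day 0), 3.23 and 3.77 (day 2) and 0 in the 3 later libraries, while mt-Nd5 stood between 12.42 and 13.44 in all libraries.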
